A study of Rattus norvegicus with 12 samples.

Results

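Bone beside mini-implants of a zirconium-based alloy was compared between implants that were loaded and implants that were not. Of the 12 libraries of the series, 6 were used: 3 of bone beside loaded implants of Zr58Cu25Al14Nb3 (Nb3 alloy) and 3 beside static implants of the same alloy. All genes that reached 1 FPKM (fragments per kilobase of gene, scaled by depth) in at least 3 of the 12 libraries were compared, which 15268 of 33801 genes did. All animals were wild-type rats, and the implants stood at the site of the upper first molar. Loaded implants received cyclic force for 2 weeks, and bone was taken from within a diameter of 4 mm. The other 6 libraries come from bone beside commercially pure titanium (cpTi), 3 with the same loading and 3 without. They entered the filter and the estimate of spread, and served to test whether a difference depends on the material. In a fit of the 6 Nb3 libraries alone 5558 genes were called, against 6996 with all 12. Whether replicates came from different animals is not stated, so p-values measure only the spread between these libraries, which may be technical.

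Jaw bone around an implant holds mineralised matrix with its osteoblasts, osteocytes and osteoclasts, and marrow spaces in which blood cells are made. In marrow, red cell precursors build heme and globin, precursors of neutrophils and eosinophils fill granules with proteases and toxic proteins, and stromal cells hold blood stem cells in place through factors such as Cxcl12. Fibrous repair tissue, blood vessels, nerves and the gum and nasal linings lie close by. Differences below are loaded minus non-loaded on the scale of log2(FPKM + 1), with standard error (SE), and a gene was called where limma gave a Benjamini-Hochberg adjusted p under 0.05 over all genes tested.

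Reads on genes ranged from 13.998 to 22.3 M in the 6 libraries. Loading came with calls for 6996 genes (45.8% of those tested), 3156 higher and 3840 lower. Under scaling by total reads, which moved the median of all genes by -0.15, there were 2266 higher and 4668 lower. The groups did not overlap for 7763 genes (50.8%; 22.9% higher and 28% lower). A call was therefore common: 20.7% of all tested genes were called higher and 25.2% lower, and each list below is to be read against those shares. The median over all tested genes was -0.02. Of the calls, 3475 (22.8%) reached a difference of 1 on the log2 scale, 1586 higher (10.4%) and 1889 lower (12.4%), and 51 were lower by at least 5. The loaded libraries stood apart from all the others, with correlations of 0.731 to 0.866 to the other 9 and of 0.900 to 0.937 among themselves, across the tested genes. Reads on mitochondrially encoded genes made up 11.97%, 24.3% and 11.3% of loaded replicates 1, 2 and 3, against 4.31% to 5.22% of the non-loaded libraries. Loaded replicate 2 also had the highest marker sums of skeletal muscle and oral epithelium. Loaded replicate 3 had the highest sum of the airway epithelium and gland list, and these sums are given below. Obp2a, an odorant-binding protein gene of the nose, was instead highest in replicate 2 (0.173, 280 and 1.81 FPKM in loaded replicates 1, 2 and 3). The part of these shares in the results was not tested.

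**Figure D1:**
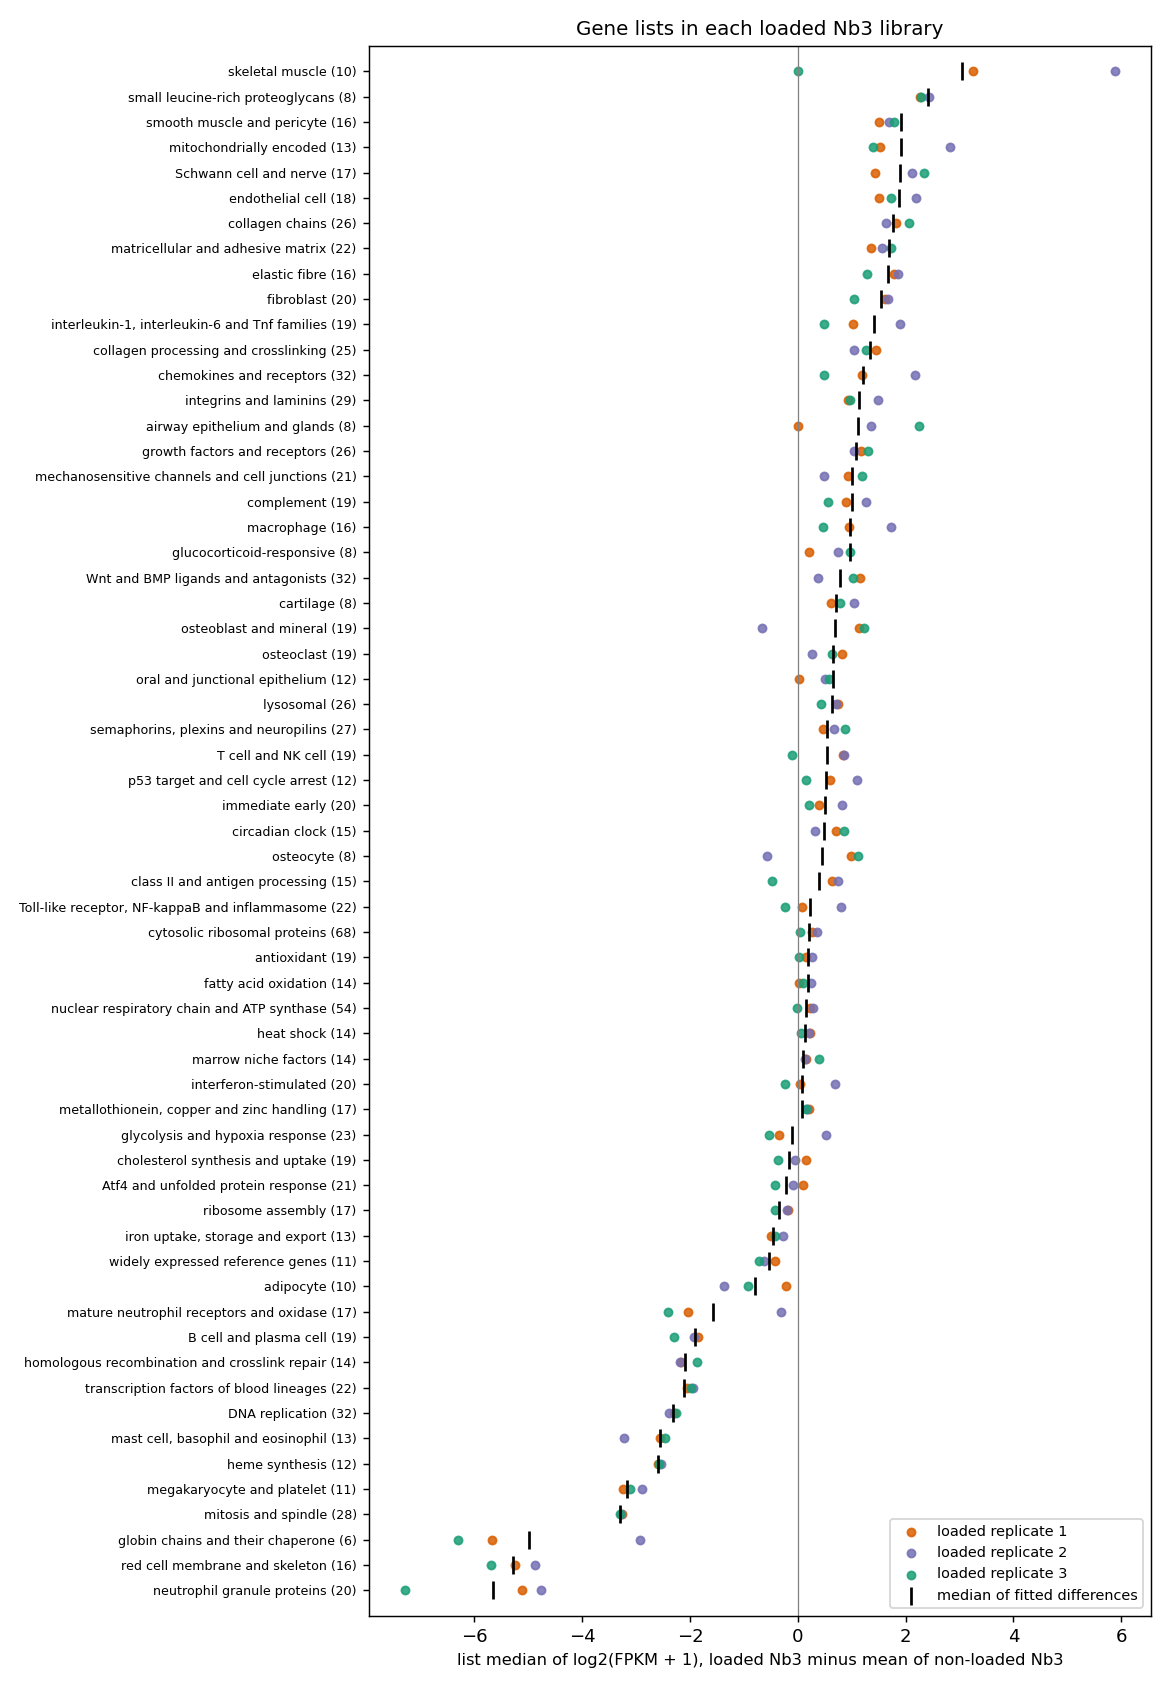
Median log2(FPKM + 1) difference from the non-loaded Nb3 mean over the tested members of 61 gene lists, for each of the 3 loaded Nb3 libraries (coloured points) and for the fitted difference (black bars); the number of tested members follows each name. The lists at the bottom (granule proteins, red cell membrane, globins, mitosis) were low in all 3 loaded libraries, while skeletal muscle and osteoblast lists differed between loaded libraries.

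The transcription factors that direct blood lineages fell nearly as a group. Of 22 tested, 17 fell and 2 rose, with a median of -2.10 log2. Gata1 (ENSRNOG00000047663, chromosome X, 14529702 to 14537530 in the deposited table), the master factor of red cells and megakaryocytes, was at 0.455, 0.683 and 0.155 FPKM in loaded replicates 1, 2 and 3 and at 44.99, 42.2 and 51.7 FPKM in the non-loaded ones. The lowest non-loaded library was thus far above the highest loaded one, and the fitted difference was -5.06 (SE 0.25, adjusted p = 2.54e-07). Gfi1b, a repressor that the same lineages need, went from 37.1, 36.02 and 42.2 FPKM to 0.17, 0.186 and 0 FPKM (-5.14). Cebpe, the factor that drives late granule formation in neutrophils and eosinophils, went from 40.9, 36.98 and 63.2 to 0.389, 1.24 and 0.296 FPKM (-4.88). The factors of early progenitors fell too, with Myb at -4.14 and Ikzf1, which opens the lymphoid programme, at -2.75. Spi1, which monocytes and macrophages also use, did not pass the test (-0.51, adjusted p = 0.217; 0.0462 without loaded replicate 2, where it fell by 0.83). Mecom and the T cell factor Tcf7 rose, by 1.28 and 0.92. In bulk tissue, fewer cells of a type and less RNA per cell cannot be told apart.

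Every tested enzyme and transporter of heme synthesis fell, 12 of 12, with a median of -2.59. Heme is built in steps shared between mitochondria and cytosol, and red cell precursors make most of it. Cpox, the coproporphyrinogen oxidase of the pathway, was at 9.89, 10.9 and 9.4 FPKM in the loaded libraries and 129, 114 and 134 FPKM in the non-loaded ones, a difference of -3.52 (SE 0.21, adjusted p = 6.49e-07). Fech, which inserts the iron, stood at 9.1, 9.18 and 8.57 FPKM against 181, 125 and 172 FPKM (-3.99). The libraries within each group were close together, and the groups were apart for all 12 genes. The smallest falls were those of Alas1 (-0.94), the first enzyme in cells other than red cells, and Abcb6 (-0.94).

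Iron genes were lower in part. Of 13 tested, 6 fell and 1 rose. The mitochondrial iron importer of red cell precursors, Slc25a37, fell from 223, 153 and 218 to 6.11, 10.6 and 5.46 FPKM (-4.60), and Tfr2, a second transferrin receptor, from 11.1, 11.1 and 10.7 to 0.122, 0.0932 and 0.0971 FPKM (-3.44). The main transferrin receptor Tfrc fell by 2.42, and the plasma iron carrier Tf by 3.54. The ferritin heavy chain Fth1, which stores iron in most cells, was at 2241, 5008 and 1438 FPKM in loaded and 1142, 1114 and 1574 FPKM in non-loaded libraries. Its groups overlapped, and the difference of 1.0 did not pass the test (adjusted p = 0.0656), although it did without loaded replicate 3 (adjusted p = 0.0126). Globin chains were uneven among the loaded libraries: Hbb-b1, a beta globin that shares sequence with its neighbours, was at 31.3, 231 and 21.7 FPKM, highest in replicate 2, against 1795, 1760.3 and 2271 FPKM.

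Eosinophil and mast cell genes made a further block, with 12 of 13 lower and a median of -2.55. Prg2 (ENSRNOG00000008394, chromosome 3, 70062535 to 70066101 in the deposited table), the major basic protein of eosinophil granules, was at 23.04, 20.9 and 1.03 FPKM in loaded and 572, 906 and 1822 FPKM in non-loaded libraries. Replicate 3 was lowest among the loaded libraries, and the difference was -6.59 (SE 0.80, adjusted p = 9.14e-05). Epx, the eosinophil peroxidase, fell by 6.30, and Prg3, a homologue of Prg2, by 5.69. Among the eosinophil and mast cell receptors, Il5ra fell by 1.35, Ms4a2, a chain of the IgE receptor, by 3.59, and Ccr3 by 1.76. The IL-33 receptor Il1rl1, found on mast cells and some lymphocytes, fell by 1.54.

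Markers of T cells and NK cells were seldom lower. Of 19 tested, 7 rose and 1 fell. Icos, a costimulatory receptor of activated T cells, was at 6.49, 10.6 and 2.97 FPKM in loaded and 0.631, 0.678 and 1.22 FPKM in non-loaded libraries (1.94, adjusted p = 0.000645). Cd2 was at 25.8, 16.3 and 30.99 FPKM against 1.48, 3.76 and 7.52 FPKM (2.40). The loaded libraries were above the non-loaded ones for both. The number that rose depended on single libraries: it was 3 when loaded replicate 1 or non-loaded replicate 3 was left out, 2 when loaded replicate 2 or non-loaded replicate 1 was, and 13 when loaded replicate 3 was. The 1 gene that fell was Nkg7, a granule membrane gene of killer cells, from 80.3, 107 and 154 to 5.98, 1.86 and 0.25 FPKM (-5.25).

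**Figure D2:**
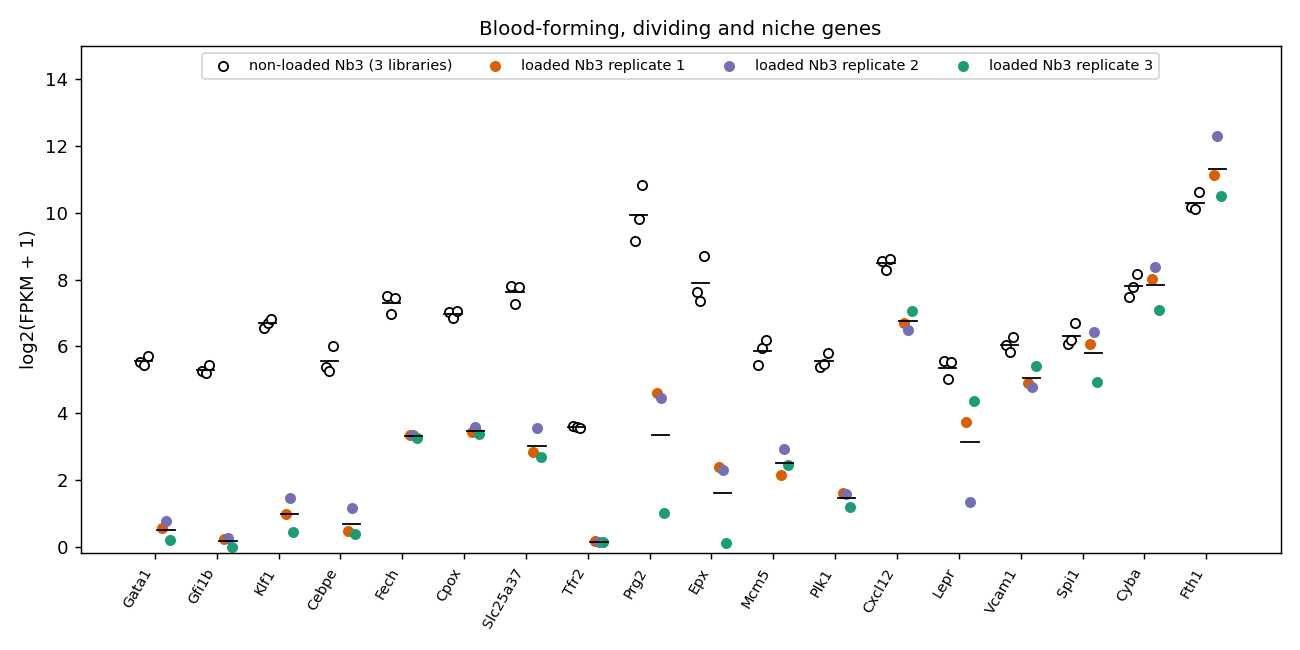
log2(FPKM + 1) of 18 genes of blood formation, division, the marrow niche and phagocytes in each Nb3 library; open points are the non-loaded libraries, coloured points the loaded ones, and bars the means. The loaded points of Gata1, Gfi1b, Cebpe and Tfr2 lie near 0, those of Cxcl12 and Vcam1 are lower by less, and those of Spi1, Cyba and Fth1 overlap the open points.

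Genes of cell division fell without exception among those listed: 32 of 32 DNA replication genes (median -2.31), 28 of 28 mitosis genes (median -3.29) and 14 of 14 genes of homologous recombination and crosslink repair (median -2.10). Mcm5, a subunit of the helicase that opens DNA for copying, was at 3.43, 6.55 and 4.45 FPKM in loaded and 42.8, 61.1 and 71.7 FPKM in non-loaded libraries (-3.36, SE 0.23, adjusted p = 1.6e-06). Plk1, the kinase that steers mitotic entry and spindle assembly, was at 2.02, 1.995 and 1.29 FPKM against 40.9, 43.3 and 55.1 FPKM (-4.10). Bard1, the partner of Brca1 in repair, was at 0.434, 0.264 and 0.704 FPKM against 9.45, 9.17 and 12.6 FPKM (-2.96), and Fancd2, of the crosslink repair pathway, fell by 2.72. Groups did not overlap for these genes, and the loaded libraries were close to each other. The smallest fall named here was that of Pcna, the sliding clamp, from 102, 183 and 166 to 35.4, 38.6 and 35.4 FPKM (-1.97).

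Promoters of part of these genes show sequence elements known from cell cycle regulation. As examples, 4 windows that hold such elements are printed, all from genes that fell. RefSeq promoter windows on GRCr8, from 250 bases before to 50 after the start of transcription, matched 24 of the 28 mitosis genes, 26 of the 32 replication genes and 9735 of the 14353 distinct symbols tested. Letters were searched on both strands. The CCAAT box is bound by NF-Y, TTTGAA is the cell cycle homology element of genes expressed at mitosis, and GCGGGAA is a form of the E2F site. None of these strings contains another. Capitals mark every match to the letters CCAAT and TTTGAA in the first 3 windows, wherever it lies. In the last they mark the match to GCGGGAA, which reads TTCCCGC on the printed strand. The windows are Ccnb2 (chr8:79981609-79981908, minus strand), Plk1 (chr1:186147408-186147707, plus strand), Cdc20 (chr5:137255750-137256049, minus strand) and Mcm5 (chr19:13488563-13488862, plus strand).
Ccnb2: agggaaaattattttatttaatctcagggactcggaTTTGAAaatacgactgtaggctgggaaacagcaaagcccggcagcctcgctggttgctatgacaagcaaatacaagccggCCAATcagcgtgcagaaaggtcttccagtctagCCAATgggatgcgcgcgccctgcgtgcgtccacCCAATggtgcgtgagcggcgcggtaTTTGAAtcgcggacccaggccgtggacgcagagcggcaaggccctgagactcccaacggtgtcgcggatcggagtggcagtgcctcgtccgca
Plk1: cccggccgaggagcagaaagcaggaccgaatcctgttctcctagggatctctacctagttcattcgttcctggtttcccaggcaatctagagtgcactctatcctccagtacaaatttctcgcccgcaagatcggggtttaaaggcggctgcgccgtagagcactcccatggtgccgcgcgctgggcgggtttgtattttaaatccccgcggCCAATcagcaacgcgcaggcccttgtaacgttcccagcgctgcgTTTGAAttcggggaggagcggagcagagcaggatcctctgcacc
Cdc20: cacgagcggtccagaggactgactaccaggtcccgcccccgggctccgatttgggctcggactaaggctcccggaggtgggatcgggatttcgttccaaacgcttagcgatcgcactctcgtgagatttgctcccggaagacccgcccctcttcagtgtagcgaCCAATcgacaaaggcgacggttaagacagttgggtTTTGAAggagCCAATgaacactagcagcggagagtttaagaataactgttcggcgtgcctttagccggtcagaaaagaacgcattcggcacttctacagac
Mcm5: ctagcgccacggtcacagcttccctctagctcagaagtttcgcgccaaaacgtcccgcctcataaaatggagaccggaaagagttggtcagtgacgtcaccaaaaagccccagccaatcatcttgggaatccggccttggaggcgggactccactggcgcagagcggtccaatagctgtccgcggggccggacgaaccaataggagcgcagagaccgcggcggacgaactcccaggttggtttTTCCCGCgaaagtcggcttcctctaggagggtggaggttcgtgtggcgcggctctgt
Ccnb2 and Cdc20, a cyclin and the activator of the anaphase complex, fell by 4.66 and 3.55. CCAAT and TTTGAA occurred together in 58.3% of the mitosis windows and in 4.75% of the windows of all tested genes. TTTGAA, with or without CCAAT, was in 75% against 11.6%. GCGGGAA was in 38.5% of the replication windows, 4.17% of the mitosis windows and 8.2% of all windows. A match of letters describes the window and was not tested as a binding site.

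Factors of the marrow niche went both ways, with 3 lower and 4 higher of 14. Of all tested genes 25.2% were called lower and 20.7% higher, so these counts alone do not set the list apart. Cxcl12 (ENSRNOG00000013589, chromosome 4, 150388325 to 150401168 in the deposited table), the chemokine that keeps blood stem cells in marrow, was at 103, 89.1 and 133 FPKM in loaded and 379, 314 and 393 FPKM in non-loaded libraries. No loaded library reached a non-loaded one, and the difference was -1.74 (SE 0.28, adjusted p = 0.00047). Lepr, the leptin receptor that marks the stromal cells making it, was at 12.4, 1.52 and 19.6 FPKM against 45.9, 31.1 and 45.3 FPKM, lowest in replicate 2 (-2.22, adjusted p = 0.0131; 0.0517 in a fit of the 6 Nb3 libraries alone). Vcam1, the adhesion molecule of the same cells, was at 29.01, 26.7 and 41.9 FPKM against 64.8, 56.4 and 76.2 FPKM (-1.01, adjusted p = 0.0259). It lost its call when loaded replicate 1 or 2 or non-loaded replicate 1 or 3 was left out (adjusted p up to 0.0866). The PDGF receptors Pdgfra and Pdgfrb, of fibroblasts and pericytes, rose by 1.48 and 1.32, the macrophage growth factor Csf1 by 0.81 and the Notch ligand Jag1 by 1.22. The stem cell factor Kitlg, which the same stroma makes, did not pass the test (0.31, adjusted p = 0.386).

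Collagen genes were mostly higher. Of 26 collagen chains 20 rose (median 1.76). The largest rises were not those of bone collagen: Col3a1, of elastic and healing tissues, went from 121, 54.8 and 65.7 to 878, 1778 and 1050.0 FPKM (3.94), Col15a1, of basement membrane zones, from 7.49, 3.45 and 4.21 to 53.4, 175 and 36.4 FPKM (3.61), and Col18a1, the source of endostatin, from 6.51, 5.99 and 4.33 to 62.7, 145 and 50.9 FPKM (3.58). Replicate 2 was highest among the loaded libraries for these 3. Col1a1, the main chain of bone, rose by 1.84 (SE 0.42, adjusted p = 0.00409; 0.248 under quantile normalization), from 3878, 1373 and 1422 to 7887, 4714 and 9368 FPKM. The cartilage chains Col2a1 (-0.21) and Col11a2 (0.25) did not pass the test.

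Of 25 genes that process and crosslink collagen 24 rose and 1 fell (median 1.35). Lox, the lysyl oxidase that starts crosslinks, was at 47.7, 61.7 and 21.7 FPKM in loaded and 7.74, 5.48 and 5.43 FPKM in non-loaded libraries (2.52, adjusted p = 0.000463). Pcolce, which helps trim procollagen, was at 271, 253 and 245 FPKM against 67.8, 34.6 and 37.3 FPKM (2.50), and the collagen chaperone Serpinh1 rose by 2.03. The loaded libraries were tight for Pcolce and spread for Lox. The 1 member that fell was Tmem38b, a channel of the endoplasmic reticulum (-0.50, adjusted p = 0.0274), and it lost its call without loaded replicate 1 or 2 or non-loaded replicate 3 (adjusted p up to 0.115).

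All 8 tested small leucine-rich proteoglycans, which bind collagen fibrils, rose (median 2.42). Prelp, which links matrix to basement membranes, was at 52.5, 67.3 and 60.4 FPKM in loaded and 8.46, 10.99 and 11.5 FPKM in non-loaded libraries (2.44, adjusted p = 0.000944). The most abundant on this scale was Bgn, biglycan, at 569.6, 578 and 546 FPKM against 319, 138 and 121 FPKM (1.69). Of 16 elastic fibre genes 13 rose (median 1.67). Fbln2, a fibulin of vessel walls and skin, was at 14.2, 75.7 and 15.7 FPKM against 2.32, 0.674 and 0.562 FPKM (3.71), and Mfap4, a microfibril glycoprotein, at 29.99, 162 and 13.8 FPKM against 1.01, 0.763 and 0.84 FPKM (4.50). Both were highest in loaded replicate 2.

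Integrins and laminins, which tie cells to matrix and to basement membranes, rose in 20 and fell in 2 of 29. Itgb4, the partner chain of epithelial and Schwann cell attachment, rose from 4.27, 6.59 and 3.19 to 19.9, 46.2 and 28.7 FPKM (2.48), and the laminin chain Lamb1 from 7.37, 4.19 and 4.47 to 20.4, 46.03 and 31.5 FPKM (2.37). Those that fell were Itga4, by which blood progenitors bind Vcam1, from 29.5, 24.2 and 33.8 to 3.37, 5.74 and 4.53 FPKM (-2.45), and Itgb3 of platelets and osteoclasts (-0.82, adjusted p = 0.0285). Itgb3 lost its call without loaded replicate 1 or 2 or non-loaded replicate 1 or 3 (adjusted p up to 0.0976).

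**Figure D3:**
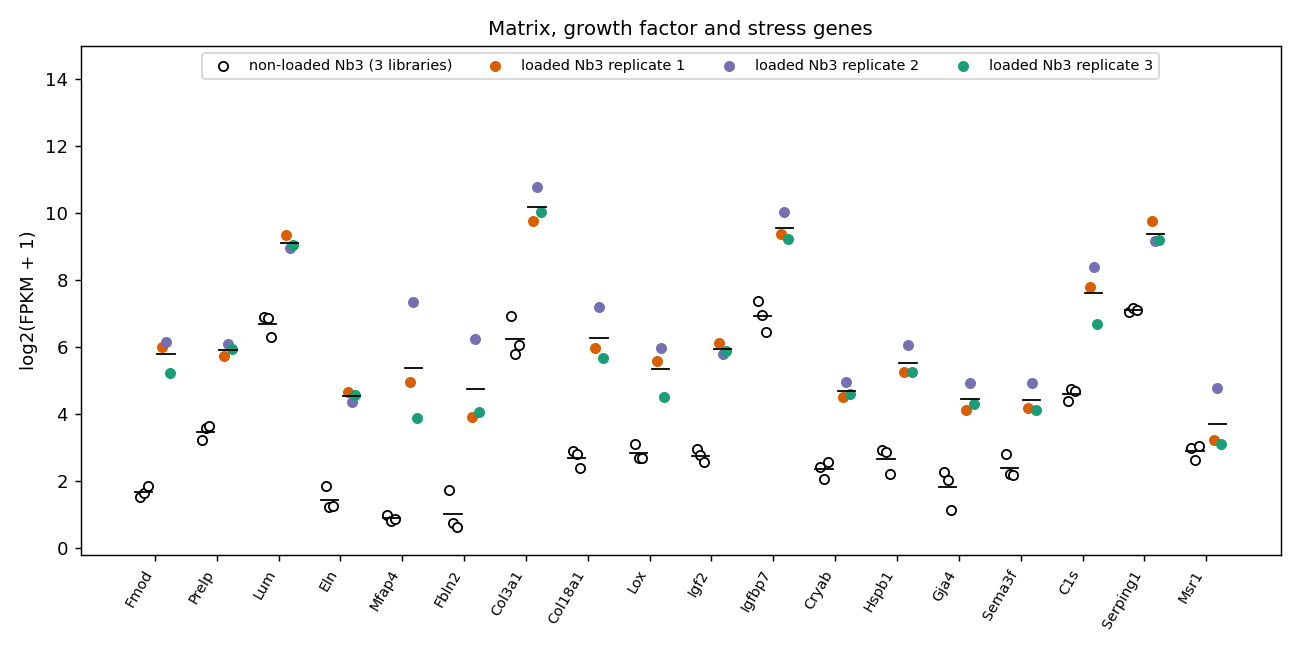
log2(FPKM + 1) of 18 genes of matrix, growth factors, stress proteins, vessels and complement in each Nb3 library; open points are the non-loaded libraries, coloured points the loaded ones, and bars the means. Loaded points lie above the open ones throughout, tightly for Prelp, Igf2 and Cryab and with replicate 2 well above the other two for Mfap4 and Fbln2.

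Growth factor genes rose in 14 and fell in 1 of 26 (median 1.07). Igf2 (ENSRNOG00000020369, chromosome 1, 197814410 to 197823018 in the deposited table), the fetal-type insulin-like growth factor, was at 69.1, 54.8 and 58.3 FPKM in loaded and 6.82, 5.85 and 4.92 FPKM in non-loaded libraries. The loaded values were close to each other and the groups far apart, with a difference of 3.17 (SE 0.34, adjusted p = 3.73e-05). Among the binding proteins of such factors, Igfbp7 rose from 166, 123 and 87.7 to 669.5, 1057 and 606 FPKM (2.63) and Igfbp4 from 196, 149 and 171 to 865, 1117 and 583 FPKM (2.27), while the receptor Igf1r fell by 1.17. Igf1 itself did not pass the test (1.10, adjusted p = 0.0503).

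Among Wnt and BMP ligands and antagonists 14 rose and 1 fell of 32. Dkk3, a Dickkopf family member, was at 28.7, 38.4 and 34.3 FPKM in loaded and 7.93, 5.41 and 7.63 FPKM in non-loaded libraries (2.13), and Sfrp5, a secreted Wnt antagonist, at 3.87, 10.3 and 13.8 FPKM against 0.293, 0.824 and 0.43 FPKM (2.64). The 1 ligand that fell, Wnt2, was low throughout, at 0.0694, 0 and 0.0661 FPKM against 1.19, 1.54 and 1.43 FPKM. Semaphorins, plexins and neuropilins, which guide axons and vessels, rose in 12 and fell in 2 of 27. Sema3f rose from 6.03, 3.65 and 3.54 to 17.1, 29.6 and 16.6 FPKM (2.01) and Sema3c by 2.13, whereas Sema4b (-1.41) and Plxnc1, a plexin of leukocytes (-1.56), fell.

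Among mechanosensitive channels and junction genes 12 rose and 5 fell of 21. The connexins of arteries rose, Gja4 from 3.86, 3.14 and 1.22 to 16.4, 29.8 and 18.7 FPKM (2.63) and Gja5 from 1.03, 0.768 and 0.508 to 8.18, 8.8 and 4.85 FPKM (2.20), as did Cdh13, a cadherin of vessel walls (2.96). Those that fell included Tln1, talin, which couples integrins to actin, from 128, 94.97 and 147 to 46, 61.5 and 52.1 FPKM (-1.18, adjusted p = 0.000508), and Vcl, vinculin (-0.52). The number of falls was 2 when loaded replicate 1, loaded replicate 3 or non-loaded replicate 3 was left out, and 3 when non-loaded replicate 1 or 2 was.

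Markers of vessels, contractile cells and nerve rose. Of 18 endothelial markers 13 rose (median 1.87), with Plvap, of fenestrated vessels, at 117, 238 and 129 FPKM in loaded and 35.6, 24.9 and 18.9 FPKM in non-loaded libraries. Of 16 smooth muscle and pericyte markers 15 rose (median 1.92), with Mcam at 48.3, 114 and 52.9 FPKM against 10.96, 7.04 and 6.51 FPKM (2.91). Of 17 Schwann cell and nerve markers 16 rose (median 1.90). Gfap, of non-myelinating Schwann cells, was at 6.35, 6.74 and 29.7 FPKM against 0.446, 0.526 and 0.256 FPKM. The loaded libraries lay above the non-loaded ones for each of these genes, with replicate 3 highest for Gfap.

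Marker transcripts of tissues that lie close to jaw bone were unequal among the loaded libraries. How they came into the libraries was not tested. Skeletal muscle markers summed to 241, 1197 and 9.59 FPKM in loaded replicates 1, 2 and 3 and to 19.7, 18.4 and 24.8 FPKM in the non-loaded ones. Acta1, skeletal actin, was at 74.8, 328 and 0 FPKM against 0.134, 0.242 and 1.23 FPKM, so loaded replicate 3 held none and the groups overlapped. Of 10 tested muscle genes 6 were called higher. It was 0 when loaded replicate 1, loaded replicate 2 or non-loaded replicate 3 was left out, 1 when non-loaded replicate 1 or 2 was, and 10 when loaded replicate 3 was. Markers of oral and junctional epithelium summed to 17.4, 479 and 122 FPKM against 24.5, 26.6 and 32.2 FPKM, and those of airway epithelium and glands to 10.1, 21.1 and 377 FPKM against 5.92, 2.92 and 4.62 FPKM. Of the airway sum in replicate 3, Bpifa1, a secreted protein of nasal epithelium, made up 328 FPKM. Keratin 5 (Krt5), which marks basal epithelium, was at 0.168, 51.1 and 0.931 FPKM in loaded and 0, 0 and 0.492 FPKM in non-loaded libraries. Tooth markers, among them Dspp of dentine and Enam of enamel, summed to at most 0.122 FPKM in each library. Cdh1, an adhesion gene of epithelium that red cell precursors also make, fell from 11.8, 12.5 and 15.96 to 1.85, 3.85 and 3.03 FPKM (-1.90).

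**Figure D4:**
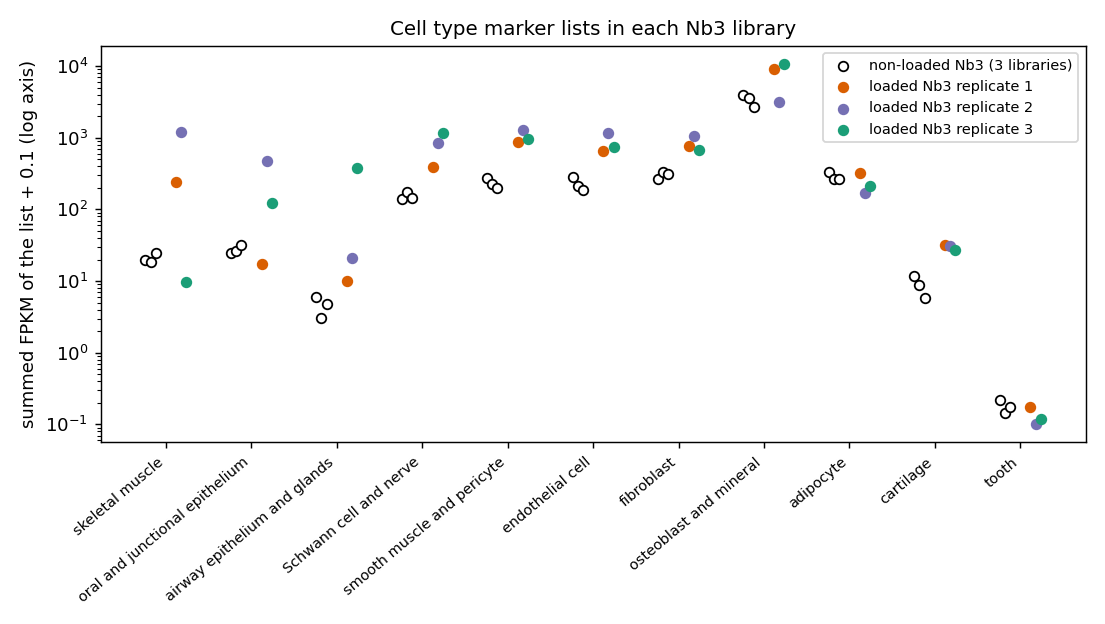
Summed FPKM of each cell type marker list in the 6 Nb3 libraries, plotted with 0.1 added on a log axis; open points are the non-loaded libraries and coloured points the loaded ones. Nerve, smooth muscle, endothelial and fibroblast sums are higher in all 3 loaded libraries, whereas muscle, epithelial and airway sums each stand highest in 1 or 2 of them, and osteoblast sums are lowest among the loaded libraries in replicate 2.

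Bone cell genes depended on which loaded libraries were used. Of 19 osteoblast and mineral genes 2 were called higher, a smaller share than among all tested genes. Bglap, osteocalcin, was at 5146, 898 and 4942 FPKM in loaded replicates 1, 2 and 3 and at 1733, 2207 and 1078 FPKM in the non-loaded ones. Replicate 2 was below every non-loaded library while the other two were above them, and the difference of 0.82 did not pass the test (adjusted p = 0.291). Without loaded replicate 2 the count rose to 14, and Bglap (1.65, adjusted p = 0.00581), Alpl, the phosphatase of mineralising cells (2.23, adjusted p = 0.000403), Ibsp, bone sialoprotein (1.65, adjusted p = 0.00431), and the osteoblast factor Runx2 (1.09, adjusted p = 0.00582) were all higher. Of 8 osteocyte genes 1 was called higher, Pdpn, an early osteocyte gene shared with fibroblasts and lymphatic vessels (1.74), while Sost, the Wnt inhibitor of osteocytes, ranged from 184 to 1044 FPKM in loaded and from 295 to 1143 FPKM in non-loaded libraries (-0.47, adjusted p = 0.633).

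Osteoclast genes rose in 8 and fell in 3 of 19. Tnfrsf11a, the receptor RANK through which osteoclasts form, was at 13.4, 8.72 and 10.6 FPKM in loaded and 4.41, 2.87 and 3.43 FPKM in non-loaded libraries (1.37, adjusted p = 0.000537). Traf6, which relays its signal, fell from 8.91, 8.06 and 8.99 to 2.69, 3.98 and 4.72 FPKM (-1.03), and Car2, a carbonic anhydrase that osteoclasts share with red cells, fell from 348, 433 and 426 to 44.95, 12.96 and 16.9 FPKM (-4.15). The number that rose was 5 when loaded replicate 1, loaded replicate 3 or non-loaded replicate 3 was left out, and 2 with scaling by total reads.

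Genes of complement, by which plasma and tissue proteins tag surfaces for uptake, rose in part: 9 of 19 rose and 2 fell (median 1.01). The proteases that start the classical pathway rose, C1s from 20.1, 26.2 and 25.03 to 223, 334 and 103 FPKM (3.01, SE 0.46, adjusted p = 0.000364) and C1r by 2.27, together with their inhibitor Serping1, from 131, 142 and 138 to 868, 578 and 587 FPKM (2.27). The C1q chains made by macrophages did not pass the test, with C1qa at -0.04, C1qb at 0.16 and C1qc at -0.15. Properdin, Cfp, which myeloid cells make, fell from 99.3, 88.9 and 131 to 24.2, 26.1 and 11.7 FPKM (-2.37), and the protective surface protein Cd55 fell by 1.51.

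Inflammatory genes varied between the loaded libraries. In the interleukin-1, interleukin-6 and Tnf families 11 of 19 rose and 3 fell. Socs3, the feedback inhibitor of interleukin-6 signalling, was at 87.4, 113 and 27.3 FPKM in loaded and 7.54, 6.4 and 7.86 FPKM in non-loaded libraries (3.0, adjusted p = 0.000171). The receptors Il1r1 and Il11ra1, of stromal cells, rose by 2.42 and 2.21, while Il6r, of leukocytes, fell from 26.6, 20.9 and 34.4 to 8.92, 10.5 and 6.8 FPKM (-1.53). Among Toll-like receptor and NF-kappaB genes 5 of 22 rose and 3 fell, with the inhibitor Nfkbia at 1.47 and Tlr9 at -0.79. Of all tested genes 20.7% were called higher and 25.2% lower, so these counts alone do not set the list apart. The rises numbered 8 without loaded replicate 3 and the falls 5 without loaded replicate 2.

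Interferon-stimulated genes did not move as a list, with 4 higher and 4 lower of 20, but 2 were higher without loaded replicate 2 or non-loaded replicate 1 or 2, and 2 lower without loaded replicate 1 or 3 or non-loaded replicate 1 or 3. One member stood far from the rest: Rsad2 (ENSRNOG00000007539, chromosome 6, 43047658 to 43059699 in the deposited table), the antiviral protein viperin, fell from 235, 111 and 175 to 4.22, 13.6 and 1.15 FPKM (-4.93, SE 0.59, adjusted p = 8.35e-05). By contrast Mx1 was at -0.02 and Mx2 at 0.09, neither past the test. Of 15 antigen processing and class II genes 3 were called higher, close to the 20.7% among all tested genes. The count was 9 without loaded replicate 3. In that library RT1-Da, a class II chain, was lowest among the loaded ones (184, 244 and 68.9 FPKM, against 42.7, 66.7 and 49.2 FPKM). Lysosomal genes rose in 16 and fell in 2 of 26, with the protease gene Ctsl at 128, 259 and 157 FPKM against 45.4, 55.04 and 39.01 FPKM (1.89) and the sialidase gene Neu1 at -0.91.

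The protein genes of the mitochondrial genome rose together. All 13 were called higher (median 1.91), and 7 were under quantile normalization. Mt-nd4, a subunit of complex I, was at 7745, 19414 and 7632 FPKM in loaded and 2886, 2389.7 and 2868 FPKM in non-loaded libraries (1.95, SE 0.36, adjusted p = 0.00116). It was among those that lost the call under quantile normalization (0.51, adjusted p = 0.0703). Loaded replicate 2 was highest, and all loaded libraries lay above the non-loaded ones. The share of reads on mitochondrially encoded genes averaged 15.8% ± 7.30 in loaded and 4.64% ± 0.508 in non-loaded libraries (SD, n = 3 each), with an exact two-sided permutation p = 0.1, the smallest that 3 against 3 allows. Of 54 nuclear genes of the respiratory chain and ATP synthase 9 rose and 2 fell (median 0.16). Both are smaller shares than among all tested genes. Ndufa2, a small subunit of complex I, rose from 18.3, 33.6 and 28.4 to 56.1, 64.4 and 46.1 FPKM (1.05), and Ndufs1, its largest subunit, fell from 24.8, 31.1 and 30.4 to 21.1, 21.4 and 21.2 FPKM (-0.41; adjusted p = 0.0539 in a fit of the 6 Nb3 libraries alone). The rises numbered 5 without loaded replicate 2 or non-loaded replicate 1, the falls 6 without non-loaded replicate 1, and with scaling by total reads there were 2 and 5.

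Few genes of cytosolic ribosomal proteins passed the test. Of 68 tested 1 rose, Rpl29 (0.62, adjusted p = 0.0362), and 0 fell, with a median of 0.21. At an unadjusted p under 0.05 1 of them was higher and 0 lower, and limma-voom on the recovered reads called 1 higher and 0 lower. Rplp0, a stalk protein often used as a reference, was at 1265, 1262 and 1010.2 FPKM in loaded and 742, 1269 and 1112 FPKM in non-loaded libraries (0.21, adjusted p = 0.485). Rpl29 lost its call without any of loaded replicates 1, 2 and 3 or non-loaded replicates 1 and 3 (adjusted p up to 0.112), whereas without non-loaded replicate 2 there were 7 rises.

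Of the heat shock genes, the members that rose included small heat shock proteins, which hold unfolded proteins and are abundant in muscle and vessel walls. Hspb1 rose from 6.66, 6.39 and 3.62 to 37.2, 66.7 and 37.7 FPKM (2.86), Hspb8 from 1.01, 1.92 and 1.27 to 10.1, 19.2 and 11.6 FPKM (2.58) and Cryab from 4.44, 3.22 and 5.02 to 21.9, 30.4 and 23.2 FPKM (2.33, SE 0.18, adjusted p = 3.96e-06). Bag3, the partner of Hspb8, rose by 1.18. The large cytosolic chaperone gene Hsp90aa1 fell from 123, 159.6 and 149 to 80.4, 88.7 and 76.1 FPKM (-0.80). In all, 5 rose and 2 fell of 14, and 4 fell without non-loaded replicate 1.

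Antioxidant genes were divided evenly, with 7 higher and 7 lower of 19; without non-loaded replicate 2 the rises numbered 4. The falls included Prdx2, peroxiredoxin 2, from 369, 407 and 491 to 118, 134 and 94.7 FPKM (-1.86) and Cat, catalase, from 128, 85.5 and 112 to 30.9, 43.8 and 29.8 FPKM (-1.61), both abundant in red cells. Sod2, the mitochondrial superoxide dismutase, which inflammation induces, rose from 21.6, 31.7 and 38.1 to 155, 377 and 57.6 FPKM (2.30, adjusted p = 0.00379), and the secreted Sod3 rose by 1.42. Of the Atf4 and unfolded protein response genes, Asns, asparagine synthetase, fell from 35.5, 30.8 and 53.3 to 7.26, 7.45 and 4.54 FPKM (-2.45) and the transporter Slc7a5 by 1.69, within a list where 7 fell and 3 rose of 21. The rises there numbered 1 without loaded replicate 3.

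Sugar and sterol metabolism showed no common direction. Of 23 glycolysis and hypoxia genes 5 rose and 3 fell, but 9 fell without loaded replicate 2. The oxygen-regulated transcription factor genes Hif1a and Epas1 rose by 1.63 and 1.77, the glucose carrier Slc2a1 from 5.47, 6.15 and 5.9 to 18.4, 36.6 and 11.7 FPKM (1.62) and Vegfa from 16.1, 12.5 and 9.01 to 35.5, 27.2 and 28.02 FPKM (1.23), while the glycolytic enzymes Hk1 and Gpi fell by 1.11 and 1.01. Cholesterol synthesis and uptake fell in 6 of 19 and 1 rose. Among all tested genes 20.7% were called higher and 25.2% lower, so the counts alone do not set these lists apart.

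Among p53 target and arrest genes, Cdkn1a, the cell cycle inhibitor p21, was at 16.9, 30.7 and 14.5 FPKM in loaded and 4.01, 4.96 and 3.89 FPKM in non-loaded libraries (1.97, SE 0.29, adjusted p = 0.000275). Cdkn2a and Cdkn2b, inhibitors of the kinases Cdk4 and Cdk6 that share a locus, were at 3.98, 3.54 and 3.95 and 4.23, 5.51 and 4.29 FPKM against 0.875, 0.791 and 0.577 and 0.781, 1.48 and 1.26 FPKM (1.47 and 1.39). Of 12 p53 target and arrest genes 6 rose and 1 fell; the apoptosis gene Bbc3 (-0.05) and the p53 inhibitor Mdm2 (-0.26) did not pass the test.

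Several genes used as references were not level. Of 11 widely used ones 5 fell, and 6 fell with 1 higher under quantile normalization. Tfrc, which red cell precursors express strongly, fell by 2.42, and Tubb5, a tubulin, and Polr2a, of RNA polymerase II, by 1.14 and 0.99. Hprt1 (-0.05) and Ywhaz (-0.01) were near 0 and did not pass the test. Actb, beta actin, was at 1636, 2007 and 1059 FPKM against 2022, 1911 and 2696 FPKM (-0.53, adjusted p = 0.123), and passed without loaded replicate 2 (adjusted p = 0.0384).

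Whether these differences depend on the implant material was tested with the interaction, loaded minus non-loaded beside Nb3 alloy less the same difference beside cpTi. It called 3089 genes (20.2% of those tested), 1285 higher (8.42%) and 1804 lower (11.8%), or 845 and 2386 under scaling by total reads. Beside cpTi the loading comparison called 1 gene (0.00655% of those tested), and 1062 had an unadjusted p under 0.05. Heme synthesis was called lower by the interaction in 10 of 12, mitosis in 28 of 28, repair in 14 of 14 and mast cell and eosinophil genes in 11 of 13. The mitochondrially encoded genes were called higher in 13 of 13, Schwann and nerve markers in 14 of 17, endothelial markers in 13 of 18 and collagen chains in 14 of 26.

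Single genes show how the 2 materials compared. For Gata1 the interaction was -4.72 (adjusted p = 2.46e-05), with cpTi at -0.34. For Cxcl12, which fell beside Nb3 alloy, the difference beside cpTi was 0.57 and the interaction -2.32 (adjusted p = 0.00258). For Eln, the elastin gene, the interaction was 3.79 (adjusted p = 0.000125), with cpTi at -0.70. All 3 passed the interaction test, but each rests on the loaded Nb3 libraries, which stood apart from all the others. Mitochondrial reads made up 11.3% to 24.3% of those libraries and 4.31% to 6.86% of the others. Whether a difference in sampling or handling of that group had a part was not tested. The 3 genes were also named for their difference beside Nb3 alloy, which the interaction contains. Collagen processing was called higher in 8 of 25, with medians of 1.35 beside Nb3 alloy and 0.61 beside cpTi. For Col1a1 the difference beside cpTi was 1.46, and the interaction of 0.38 did not pass the test (adjusted p = 0.693). No osteoblast, respiratory chain or ribosomal protein gene on the lists was called by the interaction in limma, which does not show that the materials act alike there. At an unadjusted p under 0.05 there were 0, 5 and 1, and limma-voom on the recovered reads called 0, 0 and 0. The interaction count fell to 1986 without loaded cpTi replicate 1 and to 2018 without non-loaded Nb3 replicate 3. Its genes called higher numbered 738 and 751 there, 824 when loaded cpTi replicate 3 was left out, 767 when non-loaded cpTi replicate 2 was, and 838 with the replicate number as a block.

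**Figure D5:**
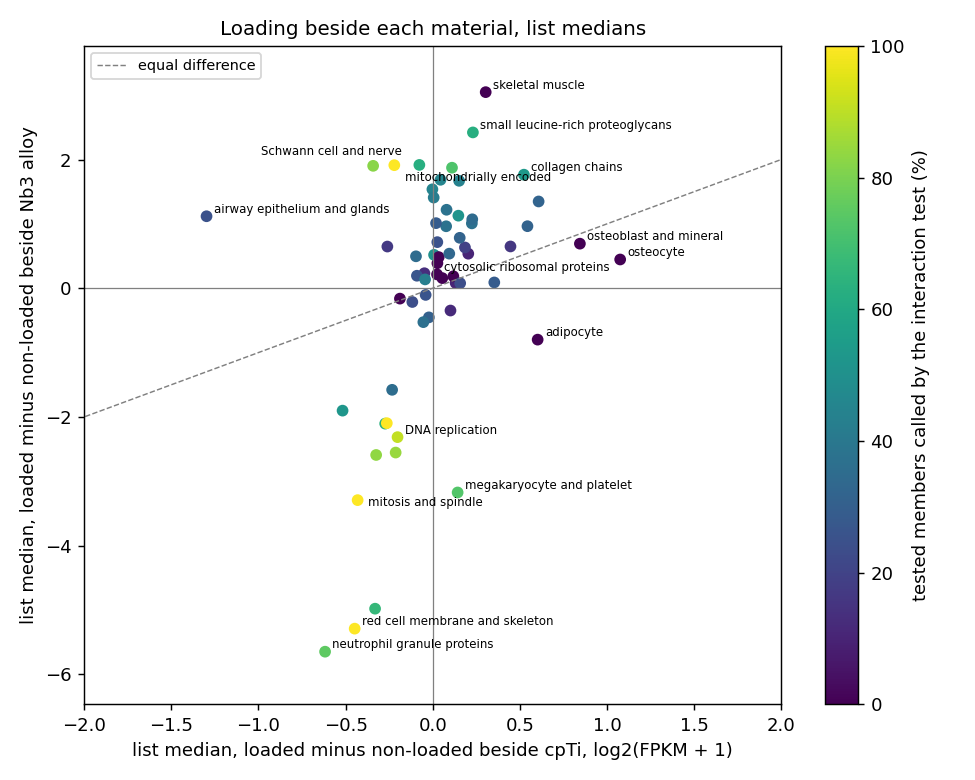
Median log2(FPKM + 1) difference, loaded minus non-loaded, of each list with at least 5 tested members beside cpTi (horizontal axis) and beside Nb3 alloy (vertical axis); the dashed line marks equal differences and colour gives the percent of members called by the interaction test. List medians run from -5.65 to 3.05 beside Nb3 alloy and from -1.30 to 1.08 beside cpTi.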

How the data were processed

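Per the labels' protocols, RNA was extracted in TRIzol and polyadenylated RNA was sequenced (NEBNext Ultra). The authors deposited FPKM for 33801 genes. Tools named in the submitters' processing notes are DESeq2 1.20.0, featureCounts 1.5.0-p3, HISAT2 2.0.5, CASAVA 1.8 and fastp. Neither build nor annotation nor strand use is given in the sources used here, and reads of overlapping and antisense genes cannot be told apart. Multiplying the deposited FPKM by gene length gave whole reads for 100% of values within 0.01 read, and these recovered reads served only depth, scaling and limma-voom. Deposited FPKM is scaled by a size factor rather than by the library total.

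The test was limma 3.58.1 (R 4.3.3, statmod 1.5.0) on log2(FPKM + 1) with a pseudocount of 1, all 12 libraries, 1 mean per group, 8 residual degrees of freedom, trended and robust moderation, and Benjamini-Hochberg adjustment over 15268 genes. On this scale the change of genes with low values is understated. Of the 18533 genes not tested none enters a count; 99 tested genes passed the filter only through loaded Nb3, and 97 of them were called higher, so counts of rises include genes that had to be high there. The code was tested on simulated data. Where several genes share a symbol the one with the longest span was used, a choice made after the values were seen.

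The comparison and the 62 gene lists were chosen with earlier results of these data known. The text names called members with the largest differences and no overlap between groups, the most abundant member of each list, markers near 0, and, chosen after their values were seen, other members given as contrasts; some genes that the rule selects are not reported here. Alternatives were another pseudocount, 2 other filters, a non-robust fit, a replicate block, 3 scalings, limma-voom, the 6 Nb3 libraries alone, a fold threshold and each library left out. Same-numbered libraries did not deviate together (correlations of -0.01 to -0.16), so numbers were not taken as pairs. Python 3.11.15, numpy 2.4.6, pandas 2.3.3 and matplotlib 3.10.9 made tables and plots.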

Additional observations from a re-analysis of the deposited data

Results flagged for a closer look

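The interaction test marked 3089 genes whose loading effect differed between Nb3 alloy and cpTi. Among the named genes with the largest rises, the effect beside Nb3 alloy exceeded that beside cpTi by 6.47 on the log2 scale for Matn4, a matrilin of matrix, by 6.18 for Thbs2, a thrombospondin, and by 5.92 for Mfap4. For Thbs2 and Mfap4 this is more than the rise beside Nb3 alloy (5.62 and 4.50), since the differences beside cpTi were -0.56 and -1.43, neither past the test. Their non-loaded means were 14.7 and 11.7 FPKM beside cpTi, against 1.62 and 0.870 FPKM beside Nb3 alloy. The excess was 5.33 for the B cell chemokine gene Cxcl13, 5.25 for arginase 1 (Arg1), 5.05 for the protease inhibitor gene Slpi, 4.64 for Acod1, which makes itaconate, 4.47 for the monocyte chemokine gene Ccl7 and 4.41 for the neutrophil chemokine gene Cxcl6. Under limma-voom 7 of these 9 rises lost the interaction call, with adjusted p = 0.0518 for Slpi, 0.0800 for Matn4, 0.0843 for Arg1, 0.0873 for Cxcl13, 0.174 for Acod1, 0.279 for Ccl7 and 0.427 for Cxcl6; only Thbs2 and Mfap4 kept it. Matn4 also lost it without loaded cpTi replicate 1 (adjusted p = 0.0563). Arg1, Acod1 and Ccl7 reached 1 FPKM in 0 of the other 9 libraries and Cxcl6 in 1, so they passed the filter on low values through the loaded Nb3 libraries and had to be high there. Among those with the largest falls, the granule genes differed by -8.43 (Mpo), -7.80 (Elane), -7.54 (RatNP-3b), -7.39 (Ctsg), -7.34 (Defa5), -7.28 (Np4) and -5.98 (Camp), and the red cell genes by -7.74 (Car1) and -6.63 (Slc4a1). These 9 kept the call under limma-voom. The defensin genes share sequence, so their reads may be split between them. Each of these effects beside Nb3 alloy rests on the 3 loaded libraries that stand apart from all the others. All these genes were named for the size of their difference beside Nb3 alloy. The interaction contains that same difference, so a large excess over cpTi was partly fixed by the choice.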

How the results depend on the processing

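Calls of the loading comparison numbered 5558 to 7038 under the other filters, pseudocount, scalings and fits, and no gene called both there and in the main fit changed sign. With an absolute log2 difference of at least 1 also required, 3475 genes remained, 1586 higher and 1889 lower. Scaling by total reads moved the median of all genes to -0.17 and the split to 2266 higher and 4668 lower, against 3156 and 3840. Without 1 library at a time the count was 5599 to 6948 (2466 to 3112 higher, 3133 to 3836 lower), and the difference in mitochondrial reads 6.98 to 13.5 percentage points. The interaction count was 1986 to 3159 (738 to 1292 higher, 1248 to 1914 lower). It had 845 genes higher with scaling by total reads. With the replicate number as a block, which assumes a pairing the data did not show, there were 6061 loading calls and 2113 interaction calls, of which 838 were higher. Among 323 named genes, 5165 values under the alternatives held 270 lost calls, 31 gained and 0 reversed for the loading comparison; the interaction values of 20 named genes held 8 lost calls among 420. Library number limits the precision, and floors for values near 0 were not computed. Mitochondrial reads averaged 15.8% of loaded and 4.64% of non-loaded Nb3 libraries, and muscle and epithelial marker sums were unequal among the loaded ones. The part of these shares in the loading differences was not tested.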

Other observations

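Homeobox and E2F genes, families of transcription factors taken from the family column of the deposited table and chosen after their values were seen, went in opposite directions. Of 52 tested homeobox genes 21 rose and 7 fell, against 20.7% and 25.2% of all tested genes. Prrx2, a mesenchymal factor, rose by 3.46, Msx1, a factor of jaw and tooth development, by 2.15, and Tlx1 by 1.95, while Hopx and Meis1, which blood progenitors use, fell by 1.06 and 1.03. With scaling by total reads 15 rose and 9 fell. Of 10 tested members of the E2F family 8 fell, among them E2f2 (-4.59), E2f8 (-4.03) and the partner gene Tfdp2 (-3.58). The falls also numbered 8 under each of the other scalings, filters and fits. Such falls were not particular to E2F. Of 14 tested genes of the ARID family 11 fell and 1 rose, and of 22 of the MYB family 13 fell and 1 rose.

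Loaded replicate 2 differed most from the other loaded libraries. It held 977 tested genes at least 1 log2 unit above the mean of the other two and 642 at least 1 below it, against 371 and 419 for replicate 1 and 493 and 843 for replicate 3. The genes most above, beside muscle genes, were those of odorant-binding proteins of the nose, with Obp2a at 0.173, 280.1 and 1.81 FPKM in loaded replicates 1, 2 and 3. These transcripts were not particular to that library, since Obp2a stood at 7405 FPKM in loaded cpTi replicate 1 and at 226 and 5586 FPKM in non-loaded cpTi replicates 2 and 3. Gene length moved with the calls: of tested genes divided into 4 classes of length of about equal size, from shortest to longest 17.7%, 22.1%, 27.5% and 33.2% were called lower, and 15.8%, 24.7%, 22.0% and 20.1% higher, with no steady order among the rises.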
